A study of Mus musculus with 60 samples.

Results

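The keratin genes were followed in the developing upper and lower jaw of the mouse. Members were all genes whose symbol in the array's annotation is Krt followed by a number alone, which gave 44 genes of the 18193 measured, 23 of type I and 21 of type II. Names with a letter, such as Krt6a, fall outside that rule. Affymetrix Mouse Genome arrays, which measure RNA by its binding to short probes, were hybridised with 3 micrograms of total RNA from embryos of C57Bl/6, an inbred strain. Each of the maxilla (upper jaw) and the mandible (lower jaw) was taken on each embryonic day from E10.5 to E14.5 as its distal and its proximal portion. This made 20 groups of 3 arrays and 60 arrays in all, and the labels name no treatment, mutation or transgene. The labels call the pieces bone and give no dissection plane. Separate embryos for the 3 arrays in each group are not stated, so p-values measure the spread between arrays, which may be technical.

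Values are log2 signals, on which a difference of 1 is a doubling. Levels of different genes cannot be set against each other on this scale, because probes differ in how well they bind. No detection calls were used, so 4.78, the largest of the 60 arrays' 25th percentiles, served as a floor, and a group mean that does not pass it is not evidence of expression. A log2 difference that involves such a group is a lower bound at best. Array medians lay between 6.05 and 6.31. The labels give 4 batches. Levels of ages and jaws were tested against each other only inside a batch. Both pieces of a jaw and age always shared their batch. The mandible was in batch 3 at E10.5 and E11.5, in batch 2 at E12.5 and in batch 1 later. The maxilla was in batch 4 at E10.5, in batch 3 at E11.5 and in batch 2 later. Changes across those steps, jaw differences outside E11.5 and E12.5 and rankings over all groups are described by level alone. Batch cannot be told apart from age or jaw there. A pair of mandible E11.5 arrays, distal replicate 3 and proximal replicate 1, had a raised distribution of values. A gene was called at an adjusted p under 0.05 in limma's moderated test with Benjamini-Hochberg adjustment over 18193 genes.

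Keratins are the intermediate filament proteins of epithelial cells, and a type I and a type II chain must pair to build a filament. Simple epithelia and early embryonic ectoderm use Krt8 with Krt18, the basal layer of stratified epithelia uses Krt5 with Krt14, and layers above it switch to Krt1 with Krt10 in skin or to Krt4 with Krt13 in mouth and oesophagus. Further chains serve hair follicles, nails and teeth. The jaw surface is an epithelium over mesenchyme, so in whole pieces keratin RNA comes from a part of the tissue, and a lower signal from fewer epithelial cells and one from less RNA per cell cannot be told apart. The epithelial share was tracked with 15 surface epithelium genes, among them Epcam, Cdh1, Esrp1 and Grhl2. Their mean log2 signal ran from 7.15 in proximal maxilla at E12.5 to 9.24 in distal mandible at E14.5, and all 15 passed 4.78 in some group. The mean of 10 jaw mesenchyme genes was between 10.92 and 12.15. That of 6 bone genes, the tissue the labels name, rose from 5.11 in proximal maxilla at E10.5 to 11.26 in distal maxilla at E14.5.

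The members were sorted by textbook role into 5 simple keratins (Krt7, Krt8, Krt18, Krt19 and Krt20), 3 basal keratins (Krt5, Krt14 and Krt15), 10 differentiation keratins, 5 stress and appendage keratins, 17 hair and nail keratins and 4 others. Promoter sequences in RefSeq (build GRCm38.p6) matched 31 of the 44 genes by Entrez gene identifier. The 250 bases before the start of 5 of them are shown because these genes lead the patterns described: the early pair Krt8 and Krt18, the basal Krt5, and Krt10 and Krt13 of the differentiating layers. Capitals mark matches to the motifs searched on both strands, which were TATAAA (the TATA box core), TGANTCA (the AP-1 form), GCCNNNGGC (an AP-2 form) and a p53-family form made of 2 copies of CATG with 6 bases between them. Each sequence is written 5′ to 3′ on the strand of its gene, which is the minus strand for all but Krt18.
Krt8, chr15:102004343-102004592: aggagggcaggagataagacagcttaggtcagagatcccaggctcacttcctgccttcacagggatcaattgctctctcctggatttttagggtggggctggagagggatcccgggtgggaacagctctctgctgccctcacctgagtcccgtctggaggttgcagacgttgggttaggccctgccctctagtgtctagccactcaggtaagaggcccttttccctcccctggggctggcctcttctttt
Krt18, chr15:102027966-102028215: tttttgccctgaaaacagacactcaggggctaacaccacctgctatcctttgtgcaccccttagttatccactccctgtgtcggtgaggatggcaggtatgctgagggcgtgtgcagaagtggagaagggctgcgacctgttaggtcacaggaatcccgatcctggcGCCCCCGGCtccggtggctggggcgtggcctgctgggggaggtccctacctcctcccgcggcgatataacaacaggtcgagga
Krt5, chr15:101712906-101713155: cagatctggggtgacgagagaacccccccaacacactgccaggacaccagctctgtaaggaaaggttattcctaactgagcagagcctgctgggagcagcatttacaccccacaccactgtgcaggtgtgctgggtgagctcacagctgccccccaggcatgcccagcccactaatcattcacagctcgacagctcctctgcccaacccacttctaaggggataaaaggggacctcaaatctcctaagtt
Krt10, chr11:99389365-99389614: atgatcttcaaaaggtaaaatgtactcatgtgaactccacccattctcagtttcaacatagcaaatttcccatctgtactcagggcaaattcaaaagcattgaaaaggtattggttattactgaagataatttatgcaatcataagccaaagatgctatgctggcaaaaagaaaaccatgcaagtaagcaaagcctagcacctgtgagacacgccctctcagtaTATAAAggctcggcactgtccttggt
Krt13, chr11:100121567-100121816: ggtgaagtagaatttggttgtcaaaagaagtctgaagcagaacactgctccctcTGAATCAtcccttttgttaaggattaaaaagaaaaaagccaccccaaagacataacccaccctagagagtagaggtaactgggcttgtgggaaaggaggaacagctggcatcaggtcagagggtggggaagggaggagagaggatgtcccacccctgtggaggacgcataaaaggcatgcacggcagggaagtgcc
Krt18 held 1 match, GCCCCCGGC, from 83 to 75 bases before its start. Krt10 held TATAAA from 26 to 21 bases before its start, and Krt13 held TGAATCA from 196 to 190 bases before its start. Krt8 and Krt5 held none of these letters in the window. Over the matched keratins, TATAAA was present in 15 of 31 genes, against 12.4% of 32851 mouse promoters. Of these 15, 14 are hair and nail or differentiation keratins and the other is Krt20. Most of the 31 genes searched belong to those classes, and the basal Krt15 and simple Krt19 had no promoter to search. A difference between classes was not tested. TGANTCA was found in Krt13 alone (6.75% of all promoters), GCCNNNGGC in Krt7, Krt18 and Krt42 (13.7%), and the paired CATG form in 0 (0.49%). A match describes letters, not a bound site.

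Many keratin genes changed little, and a minority moved by large amounts. The range of the 20 group means was at least 1 in 21 of 44 keratins (47.7%, against 35.8% of all genes) and at least 3 in 13 of 44 (29.5%, against 5.65%). Those 13 were Krt1, Krt4, Krt5, Krt8, Krt10, Krt13, Krt14, Krt15, Krt17, Krt18, Krt19, Krt77 and Krt79. The median range was 0.827 over all keratins, beside 0.784 for all genes, and the ranges span all 4 batches. By class, the median range was 6.05 for basal, 3.40 for simple, 2.77 for differentiation and 0.551 for hair and nail keratins. The number of keratins above 4.78 was 35 in at least 1 group and 28 in all 20 groups. The 9 that never passed it were Krt2, Krt12, Krt26, Krt27, Krt28, Krt34, Krt35, Krt82 and Krt86. On chromosome 11 the RefSeq gene order runs Krt13, Krt15, Krt19, Krt9, Krt14, Krt16, Krt17, Krt42, so that genes with ranges of 6.03, 6.95, 3.47, 6.05 and 5.81 have Krt16 (0.722) and Krt42 (0.344) between or beside them. On chromosome 15 Krt1 (6.73) lies next to Krt2 (0.378), and Krt78 (0.560) lies between Krt79 (3.61) and Krt8 (3.69).

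**Figure D1:**
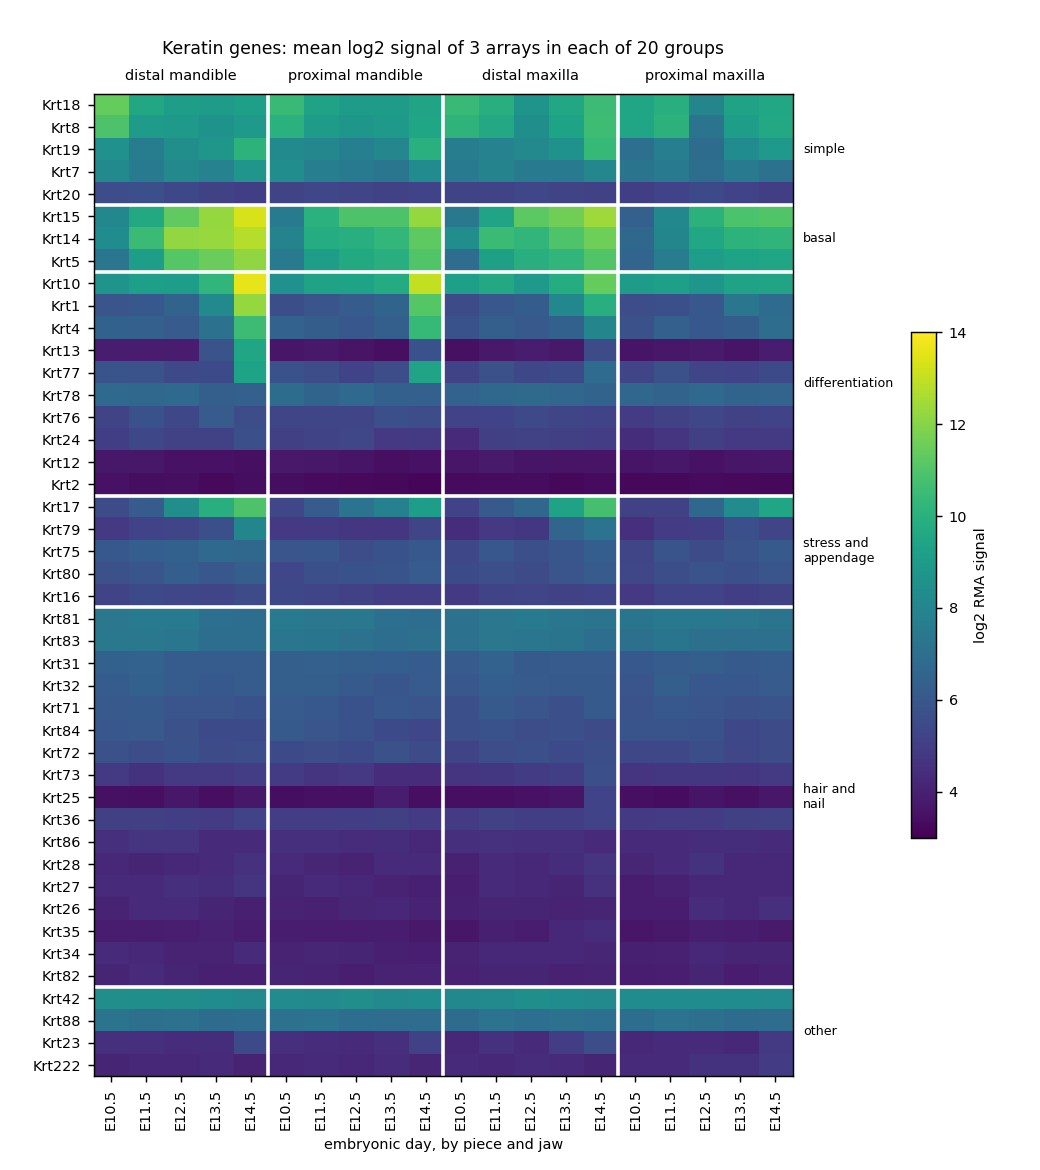
Mean log2 RMA signal of 3 arrays for each of the 44 keratin genes (rows, sorted by class and by highest level) in the 20 groups (columns, by piece, jaw and embryonic day). Krt15, Krt14, Krt5, Krt10, Krt1, Krt4 and Krt13 reach their highest means in distal mandible at E14.5, Krt18 and Krt8 in distal mandible at E10.5, and most hair and nail keratins keep 1 colour throughout.

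Krt8 and Krt18 fell in the mandible between E10.5 and E11.5. They were at their highest in distal mandible at E10.5 and at their lowest in proximal maxilla at E12.5, and in the maxilla they rose again to E14.5. Krt19, a small type I chain without a tail domain, instead reached its highest levels at E14.5. Krt20, known from gut and Merkel cells, stayed within 5.02 to 5.69 in its group means.

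Krt8, the type II chain of simple epithelia, read 10.89, 10.91 and 10.99 at E10.5, then 9.16, 8.56 and 9.40 at E11.5, then 8.88, 8.91 and 8.92 at E12.5, then 8.81, 8.55 and 8.55 at E13.5, then 9.04, 8.85 and 8.96 at E14.5 in the distal mandible. Krt8 in proximal mandible was 10.02, 10.02 and 10.05 at E10.5, then 8.98, 9.02 and 9.06 at E11.5, then 8.89, 8.76 and 8.82 at E12.5, then 8.91, 8.72 and 9.20 at E13.5, then 9.31, 9.58 and 9.47 at E14.5. The 3 distal arrays at E10.5 are the highest of all 60, distal and proximal arrays do not overlap there, and from E11.5 to E13.5 the pieces overlap. Krt8 in distal maxilla was 10.52, 10.19 and 9.79 at E10.5, then 9.75, 9.59 and 9.59 at E11.5, then 8.48, 8.43 and 8.50 at E12.5, then 9.35, 9.41 and 9.40 at E13.5, then 10.66, 10.51 and 10.60 at E14.5. Krt8 in proximal maxilla was 9.38, 9.35 and 9.67 at E10.5, then 10.03, 10.003 and 10.17 at E11.5, then 7.39, 7.34 and 6.99 at E12.5, then 9.15, 9.13 and 9.08 at E13.5, then 9.75, 9.58 and 9.52 at E14.5. The proximal maxilla at E12.5 lies below every other group, and both pieces of the maxilla rise from E12.5 to E14.5 without overlap between ages. In the mandible the mean of both pieces changed by -1.45 (SE 0.0908, adjusted p = 9.98e-19) from E10.5 to E11.5. The maxilla mean changed by 1.40 (SE 0.0908, adjusted p = 8.28e-18) from E12.5 to E13.5 and by 0.85 (SE 0.0908, adjusted p = 4.03e-10) from E13.5 to E14.5.

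Krt18, the type I partner of Krt8, read 11.39, 11.42 and 11.44 at E10.5, then 9.61, 9.29 and 9.71 at E11.5, then 9.16, 9.11 and 9.22 at E12.5, then 9.14, 9.05 and 9.09 at E13.5, then 9.35, 9.20 and 9.11 at E14.5 in the distal mandible. Krt18 in proximal mandible was 10.496, 10.45 and 10.43 at E10.5, then 9.35, 9.39 and 9.31 at E11.5, then 8.99, 9.21 and 9.002 at E12.5, then 8.95, 8.73 and 9.57 at E13.5, then 9.38, 9.55 and 9.33 at E14.5. As for Krt8, the distal arrays at E10.5 stand above all others, while the pieces lie close from E11.5 onward. Krt18 in distal maxilla was 10.89, 10.30 and 10.08 at E10.5, then 9.93, 9.88 and 9.95 at E11.5, then 8.63, 8.63 and 8.78 at E12.5, then 9.57, 9.61 and 9.61 at E13.5, then 10.53, 10.51 and 10.52 at E14.5. Krt18 in proximal maxilla was 9.54, 9.26 and 9.64 at E10.5, then 9.90, 9.86 and 9.96 at E11.5, then 8.10, 7.87 and 8.10 at E12.5, then 9.45, 9.30 and 9.29 at E13.5, then 9.64, 9.58 and 9.52 at E14.5. The proximal maxilla at E12.5 again holds the lowest values and both pieces of the maxilla rise afterwards. From E10.5 to E11.5 the mandible mean changed by -1.49 (SE 0.0893, adjusted p = 2.11e-19), nearly the same amount as Krt8. Across the 20 group means the correlation of Krt8 with Krt18 was 0.96, and across the 10 position differences 0.91, as a description over groups that share arrays and batches.

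Krt19 read 8.56, 8.61 and 8.58 at E10.5, then 7.64, 7.48 and 7.66 at E11.5, then 8.49, 8.53 and 8.33 at E12.5, then 8.95, 8.72 and 8.82 at E13.5, then 10.19, 10.13 and 9.97 at E14.5 in the distal mandible. Krt19 in proximal mandible was 8.19, 8.17 and 8.24 at E10.5, then 8.42, 7.84 and 7.97 at E11.5, then 7.76, 7.78 and 7.71 at E12.5, then 8.03, 8.21 and 8.02 at E13.5, then 10.20, 9.75 and 9.97 at E14.5. The distal mandible is lowest at E11.5 and the proximal at E12.5, and both are highest at E14.5, where they overlap. Krt19 in distal maxilla was 8.01, 7.51 and 7.39 at E10.5, then 8.08, 7.86 and 7.74 at E11.5, then 8.14, 8.20 and 8.24 at E12.5, then 8.68, 8.69 and 8.63 at E13.5, then 10.47, 10.27 and 10.33 at E14.5. Krt19 in proximal maxilla was 7.12, 6.85 and 7.11 at E10.5, then 7.75, 7.66 and 7.65 at E11.5, then 6.94, 6.83 and 6.89 at E12.5, then 8.35, 8.34 and 8.32 at E13.5, then 9.07, 8.91 and 8.84 at E14.5. The distal maxilla at E14.5 holds the highest mean (10.35) and does not overlap the proximal piece of the same age. From E13.5 to E14.5 Krt19 rose by 1.58 (SE 0.0786, adjusted p = 3.52e-22) in the mandible and by 1.14 (SE 0.0786, adjusted p = 3.09e-16) in the maxilla. The mandible's fall from E10.5 to E11.5, -0.55, was in the distal piece (-0.99), while the proximal piece gave -0.12, which was not called, and the difference between the pieces was not tested.

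Krt7, a type II chain of ducts and other simple epithelia, read 8.19, 8.29 and 8.37 at E10.5, then 7.66, 7.43 and 7.58 at E11.5, then 8.19, 8.11 and 8.18 at E12.5, then 7.97, 7.92 and 7.79 at E13.5, then 8.97, 8.63 and 8.64 at E14.5 in the distal mandible. Krt7 in proximal mandible was 8.52, 8.30 and 8.40 at E10.5, then 7.71, 7.65 and 7.74 at E11.5, then 7.47, 7.65 and 7.61 at E12.5, then 7.29, 7.48 and 7.13 at E13.5, then 8.49, 8.03 and 8.35 at E14.5. The mandible dips after E10.5 in both pieces and is high again at E14.5, with the distal arrays above the proximal ones from E12.5. Krt7 in distal maxilla was 7.67, 7.50 and 7.28 at E10.5, then 8.02, 7.96 and 7.82 at E11.5, then 7.52, 7.58 and 7.61 at E12.5, then 7.56, 7.49 and 7.56 at E13.5, then 8.16, 8.04 and 8.11 at E14.5. Krt7 in proximal maxilla was 7.43, 7.03 and 7.26 at E10.5, then 7.54, 7.53 and 7.42 at E11.5, then 6.98, 6.88 and 7.08 at E12.5, then 7.51, 7.49 and 7.42 at E13.5, then 7.41, 6.98 and 6.96 at E14.5. Its range of group means, 1.77, is the smallest of these 4 genes. From E10.5 to E11.5 the mandible changed by -0.72 (SE 0.0758, adjusted p = 2.66e-11), and from E13.5 to E14.5 by 0.92 (SE 0.0758, adjusted p = 3.58e-14).

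In all, 12 keratins were called between E10.5 and E11.5 in the mandible, 7 higher (beside 27.7% of all genes) and 5 lower (beside 16.5%). At least 2-fold, 3 were higher (2.23% of all genes) and 2 lower (0.291%). The 2 lower ones were Krt8 and Krt18 and the 3 higher ones were the basal Krt5, Krt14 and Krt15. Of 5 simple keratins 4 fell and 0 rose, and of 3 basal keratins all rose. With arrays centred on their medians the split was 5 higher and 6 lower. Without the pair of arrays with a raised distribution the step was -1.53 for Krt8, -1.54 for Krt18, 1.94 for Krt14, 1.86 for Krt15 and 1.73 for Krt5, and 10 keratins were called. Krt76 at 0.24, Krt78 at -0.21 and Krt80 at 0.24 lost their calls when a replicate number was left out. Krt76 and Krt80 also lost theirs with arrays centred on their medians, and Krt80 with repeated quantile normalization. Of the 15 surface epithelium genes, 0 rose and 9 fell over the same step (median -0.27, beside 0.03 for all genes), and the basal keratins thus rose while these genes fell or were not called. The part of epithelial content in the fall of Krt8 and Krt18 was not tested.

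The basal keratins had higher levels at E14.5 than at E10.5 in all 4 pieces and were higher distally. All 3 reached their highest mean in distal mandible at E14.5 and their lowest in proximal maxilla at E10.5, a range of 5.56 for Krt5, 6.05 for Krt14 and 6.95 for Krt15. Krt5 and Krt14 form the filament of the basal layer, and Krt15 is a further type I chain of basal cells.

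Krt14 read 8.29, 8.44 and 8.27 at E10.5, then 10.27, 11.18 and 10.06 at E11.5, then 12.24, 12.20 and 12.23 at E12.5, then 12.36, 12.34 and 12.24 at E13.5, then 12.88, 12.80 and 12.68 at E14.5 in the distal mandible. Krt14 in proximal mandible was 7.89, 7.77 and 8.03 at E10.5, then 10.59, 9.21 and 9.57 at E11.5, then 9.97, 9.92 and 9.96 at E12.5, then 10.30, 10.49 and 10.01 at E13.5, then 11.48, 11.11 and 11.27 at E14.5. The distal arrays from E12.5 to E14.5 are at 12.20 or more and lie above the proximal arrays of the same age. At E11.5 the arrays of each piece spread widely and the pieces overlap. Krt14 in distal maxilla was 8.36, 8.21 and 8.62 at E10.5, then 10.53, 10.44 and 10.53 at E11.5, then 10.17, 10.27 and 10.33 at E12.5, then 10.97, 10.98 and 11.01 at E13.5, then 11.62, 11.48 and 11.60 at E14.5. Krt14 in proximal maxilla was 6.19, 6.64 and 7.37 at E10.5, then 8.14, 7.89 and 8.05 at E11.5, then 9.69, 9.56 and 9.52 at E12.5, then 10.12, 10.16 and 10.10 at E13.5, then 10.29, 10.18 and 10.10 at E14.5. The distal maxilla lies above the proximal at every age with no overlap, and its lead is largest at E11.5. Averaged over ages (15 arrays a side), distal exceeded proximal by 1.39 (SE 0.0909, adjusted p = 3.45e-18) in the mandible and by 1.41 (SE 0.0909, adjusted p = 7.45e-19) in the maxilla. Between E10.5 and E11.5 Krt14 rose in the mandible by 2.03 (SE 0.144, adjusted p = 7.21e-17). The probe set used can bind related transcripts by its design. A second probe set of Krt14 gave 5.90 to 12.27 over the group means with the same highest and lowest groups, and 1 more stayed between 4.40 and 5.42.

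Krt5, the type II partner of Krt14, read 7.53, 7.19 and 7.26 at E10.5, then 9.003, 9.74 and 8.71 at E11.5, then 11.06, 11.10 and 11.12 at E12.5, then 11.63, 11.52 and 11.29 at E13.5, then 12.25, 12.27 and 11.96 at E14.5 in the distal mandible. Krt5 in proximal mandible was 7.46, 7.59 and 7.50 at E10.5, then 9.51, 8.77 and 9.06 at E11.5, then 9.75, 9.61 and 9.74 at E12.5, then 10.13, 10.06 and 9.49 at E13.5, then 11.07, 10.91 and 11.10 at E14.5. The pieces of the mandible overlap at E10.5 and E11.5 and part from E12.5. Krt5 in distal maxilla was 6.65, 7.14 and 6.98 at E10.5, then 9.21, 9.35 and 9.24 at E11.5, then 9.87, 9.91 and 9.85 at E12.5, then 10.34, 10.16 and 10.15 at E13.5, then 10.998, 11.05 and 11.04 at E14.5. Krt5 in proximal maxilla was 6.37, 6.60 and 6.82 at E10.5, then 7.59, 7.62 and 7.72 at E11.5, then 9.09, 9.05 and 9.19 at E12.5, then 9.38, 9.38 and 9.39 at E13.5, then 9.59, 9.49 and 9.49 at E14.5. The maxilla parts earlier, with distal above proximal from E11.5 on. Averaged over ages the distal excess was 0.79 (SE 0.0683, adjusted p = 5.82e-14) in the mandible and 1.01 (SE 0.0683, adjusted p = 4.15e-18) in the maxilla. That excess grew between E10.5 and E14.5 by 1.32 (SE 0.216, adjusted p = 4.2e-06) in the mandible and by 1.18 (SE 0.216, adjusted p = 4.03e-05) in the maxilla.

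Krt15 read 8.08, 8.29 and 8.09 at E10.5, then 9.53, 9.80 and 9.71 at E11.5, then 11.28, 11.31 and 11.35 at E12.5, then 12.42, 12.13 and 12.18 at E13.5, then 13.38, 13.32 and 13.29 at E14.5 in the distal mandible. Krt15 in proximal mandible was 7.53, 7.63 and 7.49 at E10.5, then 10.55, 9.61 and 9.89 at E11.5, then 11.001, 10.86 and 10.92 at E12.5, then 10.97, 11.07 and 10.79 at E13.5, then 12.46, 12.22 and 12.17 at E14.5. Apart from E11.5, where the proximal arrays overlap and partly exceed the distal ones, distal arrays are the higher. Krt15 in distal maxilla was 7.01, 7.33 and 7.94 at E10.5, then 9.44, 9.54 and 9.28 at E11.5, then 11.19, 11.23 and 11.24 at E12.5, then 11.60, 11.60 and 11.64 at E13.5, then 12.47, 12.27 and 12.41 at E14.5. Krt15 in proximal maxilla was 6.06, 6.35 and 6.72 at E10.5, then 8.05, 8.13 and 8.18 at E11.5, then 10.04, 10.17 and 10.03 at E12.5, then 10.88, 10.95 and 10.88 at E13.5, then 11.06, 11.03 and 10.92 at E14.5. In the maxilla the pieces do not overlap at any age. The distal excess was 0.60 (SE 0.0646, adjusted p = 5.89e-11) in the mandible and 1.12 (SE 0.0646, adjusted p = 1.1e-20) in the maxilla, and the difference between these, -0.52 (SE 0.0913, adjusted p = 5.83e-06), was called. Over the 20 group means Krt5 correlated with Krt14 at 0.97, with Krt15 at 0.97, and Krt14 with Krt15 at 0.93, while over the 10 position differences these were 0.77, 0.61 and 0.39.

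Likeness over the 20 group means was ranked over 15634 genes, without names that begin with Krt or Gm and without genes never above 4.78. Most like Krt14 among these were Col17a1 (Pearson 0.984), Prkch (0.971), Dsc3 (0.961), Fosl2 (0.955) and Lama3 (0.954). Over the 10 position differences these genes gave 0.83, 0.63, 0.72, 0.52 and 0.60. The group means span all 4 batches, and the part of shared epithelial content was not tested. Col17a1 encodes a hemidesmosomal collagen, Dsc3 a desmosomal cadherin and Lama3 a laminin chain. Of the same genes, those most like Krt8 over the group means were Cldn7 (0.850), Zbtb42 (0.844), Eef2kmt (0.801), Tjp3 (0.797) and Pir (0.769). Over the position differences they gave 0.56, 0.72, 0.44, 0.39 and 0.21. Cldn7 encodes a claudin. Krt8 against Krt14 gave -0.33 over group means and -0.59 over position differences.

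**Figure D2:**
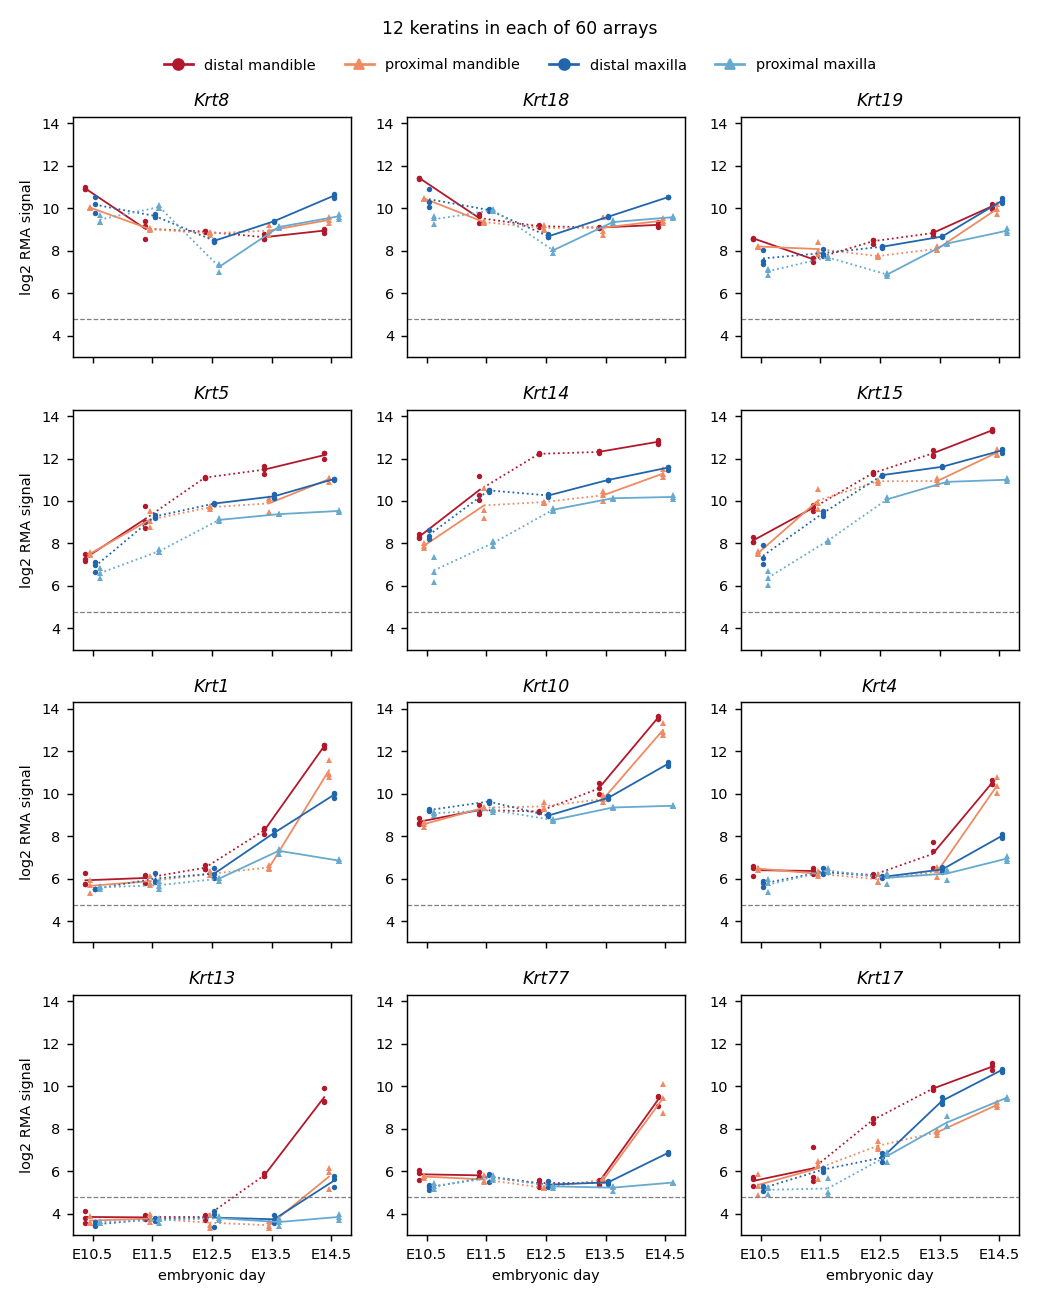
Log2 RMA signal of 12 keratins in each array (points) against embryonic day, with lines through the means of 3 arrays in distal and proximal mandible and maxilla. Lines are solid where both ages share a batch and dotted where they do not, and the dashed grey line is 4.78. In the mandible Krt8 and Krt18 fall from E10.5, while in both jaws Krt5, Krt14 and Krt15 climb, and Krt1, Krt10, Krt4, Krt13 and Krt77 are highest in the mandible at E14.5.

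Position differences of keratins ran almost all toward the distal piece. In the mandible 21 of 44 were called with distal higher (beside 18.3% of all genes) and 0 with proximal higher (beside 17.9%), and 3 exceeded 2-fold (0.335% of all genes): Krt14, Krt13 at 1.31 and Krt17 at 1.05. The 21 include Krt2, Krt27 and Krt34, which had no group mean above 4.78, and with dim genes left out 12 were called. In the alternatives run for them, 12 of the 21 kept their call throughout, and Krt2, Krt4, Krt10, Krt16, Krt18, Krt24, Krt34, Krt73 and Krt76 lost it when a replicate number was left out. In the maxilla 19 were called with distal higher (beside 31.6%) and 1, Krt222, with proximal higher (beside 19%), and the 3 beyond 2-fold (0.28% of all genes) were the 3 basal keratins. Krt4, Krt35, Krt73 and Krt75 lost their calls there when a replicate number was left out. Over all 44 keratins the median difference came to 0.11 (mandible) and 0.12 (maxilla), beside 0.01 and 0.04 for all genes. The surface epithelium genes leaned the same way, 13 of 15 distal-high in the mandible (median 0.48) and 15 of 15 in the maxilla (median 0.75), and the part of epithelial content in the keratin differences was not tested.

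The distal excess differed between the jaws for 14 keratins, 5 with a larger value in the mandible (beside 16.1% of all genes) and 9 with a larger value in the maxilla (beside 23.8%). Larger in the mandible were Krt13 (difference of differences 0.96), Krt75 (0.46), Krt79 (0.44), Krt17 (0.40) and Krt222 (0.21). The other 2 probe sets of Krt13 gave 0.42 and 0.44, both called, and the average of all 3 gave 0.61. Larger in the maxilla were Krt15, Krt8 (-0.51), Krt19 (-0.48), Krt10 (-0.47), Krt18 (-0.35), Krt25, Krt77, Krt23 and Krt7. Krt7, Krt17, Krt23, Krt77 and Krt222 lost the call when a replicate number was left out, and Krt17 then fell to 0.24 (adjusted p = 0.154) without replicate 2. So 4 of 5 simple keratins were more distal in the maxilla. Of the 15 surface epithelium genes 0 were called toward the mandible and 10 toward the maxilla (median -0.22).

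Krt8 turned its position difference over time in the mandible. It was distal-high at E10.5 by 0.90 (SE 0.128, adjusted p = 3.6e-07), gave 0.02, 0.08 and -0.31 at the next 3 ages, none called, and was proximal-high at E14.5 with -0.50 (SE 0.128, adjusted p = 0.00204). The change from E10.5 to E14.5 was -1.41 (SE 0.182, adjusted p = 3.19e-08). Krt18 changed by -1.16 (SE 0.179, adjusted p = 1.51e-06), from 0.96 at E10.5 to -0.20 at E14.5, which was not called. In the maxilla Krt8 was distal-high at E10.5 (0.70), proximal-high at E11.5 (-0.42) and distal-high again at E12.5 (1.23) and E14.5 (0.97). The change from E10.5 to E14.5 there, 0.27 (SE 0.182, adjusted p = 0.404), was not called. Both other probe sets of Krt8 gave a mandible change of -1.32 and -1.45, each called.

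The jaws also exchanged places in Krt8 between E11.5 and E12.5. At E11.5, where both jaws are in batch 3, mandible minus maxilla was -0.82 (SE 0.0908, adjusted p = 1.96e-10) for Krt8 and -0.47 for Krt18, while the basal Krt15 (1.08), Krt14 (0.88) and Krt5 (0.68) were higher in the mandible. That mandibular excess lay in the proximal pieces, at 1.89, 1.76 and 1.47, and the distal pieces gave 0.26, 0.00 and -0.11, none called, though that contrast between pieces was not tested. Without the pair of arrays with a raised distribution the jaws differed by -0.90 for Krt8, 0.93 for Krt15, 0.79 for Krt14 and 0.69 for Krt5. At E12.5, in batch 2, Krt8 gave 1.01 (SE 0.0908, adjusted p = 2.75e-13) and Krt18 0.76, both higher in the mandible. The counts were 6 higher in the mandible (beside 21.2% of all genes) and 2 lower (beside 12.3%) at E11.5, and 11 higher (beside 24%) and 1 lower, Krt28 (beside 17.3%), at E12.5, where Krt28 and Krt80 lost their calls when a replicate number was left out. Krt17 at E11.5, 0.51, became 0.28 (adjusted p = 0.147) without replicate 2, the number of the distal mandible array that read 7.13 against 5.55 and 5.74. Its call was also lost without replicate 3 and in a fit on only the arrays compared. Of the surface epithelium genes 2 were higher and 3 lower in the mandible at E11.5, and 15 of 15 were higher at E12.5 (median 0.90). The part of epithelial content in these jaw differences was not tested.

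**Figure D3:**
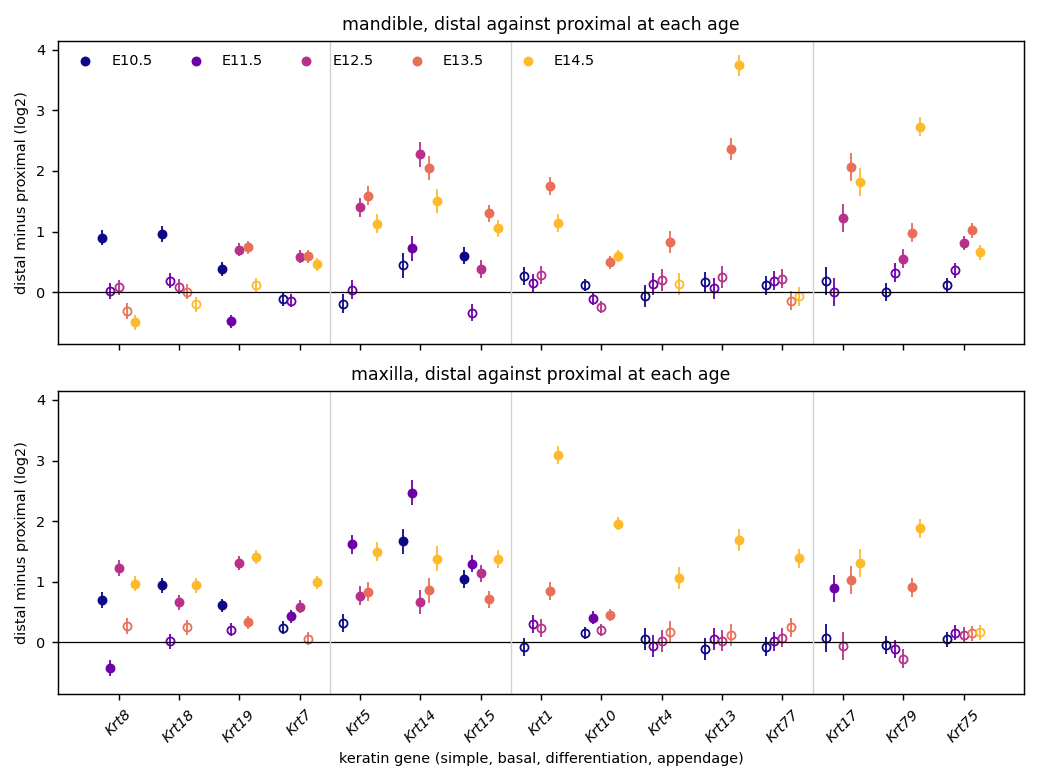
Distal minus proximal log2 signal of 15 keratins at each of 5 ages in the mandible (top) and maxilla (bottom), 3 arrays against 3, with bars of 1 SE. Filled points are called at an adjusted p under 0.05 and open points are not. Krt8 in the mandible goes from 0.90 at E10.5 to -0.50 at E14.5, Krt13 reaches 3.74 in the mandible at E14.5 and Krt1 3.09 in the maxilla at E14.5.

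Of the 10 differentiation keratins, Krt1, Krt4, Krt10, Krt13 and Krt77 had their highest group means in the mandible at E14.5. Krt1, Krt4, Krt10, Krt13 and Krt77 each rose more than 2-fold in the mandible between E13.5 and E14.5. Krt1 and Krt10 are the pair of cornifying layers, Krt4 and Krt13 the pair of the inner lining of mouth and oesophagus, and Krt77 a type II chain of epidermis.

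Krt1 read 5.74, 6.27 and 5.75 at E10.5, then 6.17, 6.14 and 5.79 at E11.5, then 6.47, 6.44 and 6.62 at E12.5, then 8.36, 8.38 and 8.11 at E13.5, then 12.28, 12.29 and 12.14 at E14.5 in the distal mandible. Krt1 in proximal mandible was 5.96, 5.68 and 5.34 at E10.5, then 6.12, 5.81 and 5.72 at E11.5, then 6.34, 6.15 and 6.17 at E12.5, then 6.63, 6.52 and 6.44 at E13.5, then 11.57, 10.79 and 10.94 at E14.5. The first large step is at E13.5 in the distal mandible, across a change of batch from E12.5. In the proximal mandible it is at E14.5, inside a batch. Krt1 in distal maxilla was 5.51, 5.51 and 5.49 at E10.5, then 5.83, 6.26 and 5.91 at E11.5, then 6.20, 6.02 and 6.50 at E12.5, then 8.11, 8.05 and 8.30 at E13.5, then 10.03, 10.001 and 9.80 at E14.5. Krt1 in proximal maxilla was 5.52, 5.65 and 5.59 at E10.5, then 5.65, 5.53 and 5.90 at E11.5, then 6.04, 6.05 and 5.90 at E12.5, then 7.40, 7.36 and 7.16 at E13.5, then 6.83, 6.93 and 6.81 at E14.5. At E14.5 the pieces of each jaw do not overlap, and the proximal maxilla is the 1 piece that lies lower at E14.5 than at E13.5. The mandible rose by 4.26 (SE 0.105, adjusted p = 7.87e-35) from E13.5 to E14.5. Over the same step the distal maxilla rose by 1.79 (SE 0.149, adjusted p = 2.5e-13) and the proximal maxilla changed by -0.45 (SE 0.149, adjusted p = 0.0274). The difference between the pieces, 2.24 (SE 0.21, adjusted p = 5.91e-11), was called. It was computed after the values were seen, as was its counterpart in the mandible, -0.61 (SE 0.21, adjusted p = 0.158), which was not called.

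Krt10 read 8.57, 8.62 and 8.86 at E10.5, then 9.03, 9.19 and 9.48 at E11.5, then 9.20, 9.16 and 9.13 at E12.5, then 10.49, 10.25 and 9.99 at E13.5, then 13.68, 13.60 and 13.503 at E14.5 in the distal mandible. Krt10 in proximal mandible was 8.69, 8.44 and 8.57 at E10.5, then 9.36, 9.35 and 9.32 at E11.5, then 9.31, 9.63 and 9.27 at E12.5, then 9.73, 9.93 and 9.60 at E13.5, then 13.31, 12.78 and 12.92 at E14.5. Every array read at least 8.44 from E10.5 on, and the jump between E13.5 and E14.5 separates those ages fully. Krt10 in distal maxilla was 9.19, 9.23 and 9.27 at E10.5, then 9.64, 9.58 and 9.67 at E11.5, then 8.93, 8.96 and 9.02 at E12.5, then 9.89, 9.79 and 9.73 at E13.5, then 11.39, 11.48 and 11.31 at E14.5. Krt10 in proximal maxilla was 9.09, 9.14 and 9.02 at E10.5, then 9.28, 9.15 and 9.23 at E11.5, then 8.72, 8.74 and 8.80 at E12.5, then 9.35, 9.35 and 9.35 at E13.5, then 9.46, 9.41 and 9.43 at E14.5. At E14.5 the distal arrays lie above the proximal ones in each jaw, as for Krt1, with no overlap. Krt10 rose by 3.30 (SE 0.0713, adjusted p = 4.66e-37) in the mandible from E13.5 to E14.5, by 1.59 in the distal maxilla and by 0.08 in the proximal maxilla, the last not called. Krt1 and Krt10 correlated at 0.96 over group means and 0.91 over position differences.

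Krt4 read 6.48, 6.58 and 6.12 at E10.5, then 6.38, 6.23 and 6.49 at E11.5, then 6.22, 6.11 and 6.17 at E12.5, then 7.72, 6.48 and 7.30 at E13.5, then 10.63, 10.47 and 10.45 at E14.5 in the distal mandible. Krt4 in proximal mandible was 6.49, 6.40 and 6.51 at E10.5, then 6.12, 6.21 and 6.36 at E11.5, then 5.86, 5.83 and 6.22 at E12.5, then 6.55, 6.06 and 6.39 at E13.5, then 10.78, 10.01 and 10.34 at E14.5. The 3 distal arrays at E13.5 are scattered, 2 of them above every earlier array, and at E14.5 the pieces overlap. Krt4 in distal maxilla was 5.90, 5.61 and 5.81 at E10.5, then 6.26, 6.50 and 6.21 at E11.5, then 6.14, 6.03 and 6.07 at E12.5, then 6.30, 6.53 and 6.46 at E13.5, then 8.0, 7.91 and 8.11 at E14.5. Krt4 in proximal maxilla was 5.78, 5.99 and 5.37 at E10.5, then 6.48, 6.30 and 6.37 at E11.5, then 6.13, 6.25 and 5.75 at E12.5, then 5.94, 6.39 and 6.40 at E13.5, then 6.92, 7.05 and 6.85 at E14.5. The maxilla rises at E14.5 as well, distal above proximal. From E13.5 to E14.5 Krt4 rose by 3.70 (SE 0.128, adjusted p = 9.47e-29) in the mandible and by 1.13 (SE 0.128, adjusted p = 1.62e-09) in the maxilla, and its second probe set gave 3.21 and 1.20.

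Krt13 read 3.58, 4.15 and 3.81 at E10.5, then 3.93, 3.83 and 3.74 at E11.5, then 3.84, 3.96 and 3.69 at E12.5, then 5.92, 5.77 and 5.77 at E13.5, then 9.91, 9.25 and 9.31 at E14.5 in the distal mandible. Krt13 in proximal mandible was 3.59, 3.90 and 3.56 at E10.5, then 3.60, 3.75 and 3.97 at E11.5, then 3.34, 3.48 and 3.92 at E12.5, then 3.64, 3.43 and 3.31 at E13.5, then 6.13, 5.95 and 5.17 at E14.5. In the probe set used, the distal mandible passes 4.78 at E13.5 and the proximal mandible at E14.5. Krt13 in distal maxilla was 3.60, 3.49 and 3.40 at E10.5, then 3.81, 3.77 and 3.68 at E11.5, then 4.11, 3.98 and 3.37 at E12.5, then 3.70, 3.56 and 3.96 at E13.5, then 5.78, 5.62 and 5.25 at E14.5. Krt13 in proximal maxilla was 3.57, 3.57 and 3.68 at E10.5, then 3.79, 3.55 and 3.75 at E11.5, then 3.72, 3.79 and 3.87 at E12.5, then 3.41, 3.63 and 3.80 at E13.5, then 3.73, 3.84 and 3.99 at E14.5. Of the 20 groups 4 had a mean above 4.78 in that probe set, and the proximal maxilla never did. Krt13 differences that use a group not above 4.78 are at best lower bounds. The distal excess in the mandible was 2.36 (SE 0.179, adjusted p = 3.24e-15) at E13.5 and 3.74 (SE 0.179, adjusted p = 1.39e-22) at E14.5, and in the maxilla 1.69 (SE 0.179, adjusted p = 4.93e-11) at E14.5. Both other probe sets of Krt13 had their highest mean, 6.81 and 6.60, in distal mandible at E14.5, and passed 4.78 in no other group. They had means of 4.48 and 4.20 in distal mandible at E13.5. At E14.5 they had 4.65 and 4.26 in proximal mandible and 4.10 and 3.97 in distal maxilla. Their distal excess at single ages was not tested. Between E13.5 and E14.5 both rose in the mandible (1.59 and 1.41, each called). For the maxilla they gave 0.05 and 0.23, not called, where the probe set used gave 1.02. With all 3 probe sets averaged, the distal excess over ages was 0.78 in the mandible in place of 1.31 and 0.18 in the maxilla in place of 0.36, and the maxilla step was 0.44, all still called.

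Krt77 read 6.06, 5.61 and 5.92 at E10.5, then 5.75, 5.73 and 5.95 at E11.5, then 5.58, 5.27 and 5.47 at E12.5, then 5.58, 5.37 and 5.44 at E13.5, then 9.57, 9.49 and 9.06 at E14.5 in the distal mandible. Krt77 in proximal mandible was 5.76, 5.79 and 5.70 at E10.5, then 5.57, 5.50 and 5.80 at E11.5, then 5.23, 5.21 and 5.22 at E12.5, then 5.68, 5.62 and 5.52 at E13.5, then 10.11, 8.77 and 9.44 at E14.5. Both mandible pieces jump at E14.5 and overlap, the proximal arrays being widely spread. Krt77 in distal maxilla was 5.34, 5.10 and 5.27 at E10.5, then 5.51, 5.85 and 5.82 at E11.5, then 5.53, 5.31 and 5.26 at E12.5, then 5.41, 5.51 and 5.53 at E13.5, then 6.90, 6.88 and 6.80 at E14.5. Krt77 in proximal maxilla was 5.31, 5.17 and 5.44 at E10.5, then 5.60, 5.84 and 5.69 at E11.5, then 5.32, 5.21 and 5.32 at E12.5, then 5.09, 5.27 and 5.33 at E13.5, then 5.52, 5.43 and 5.46 at E14.5. The distal maxilla rises at E14.5 and the proximal maxilla stays near its earlier level. The mandible rose by 3.87 (SE 0.112, adjusted p = 3.86e-32) and the maxilla by 0.81 (SE 0.112, adjusted p = 1.91e-07), the distal piece by 1.38 and the proximal by 0.24, not called.

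The other 5 differentiation keratins did little. Krt76, known from the palate, had its highest group mean, 6.15, in distal mandible at E13.5 and changed by -0.33 from E13.5 to E14.5 in the mandible, which was -0.17 (adjusted p = 0.287) without replicate 1. Krt24 was highest in distal mandible at E14.5 (5.68), with a distal excess there of 0.83. Krt78 kept its group means between 6.34 and 6.90. Krt2 of the upper epidermis and Krt12 of the cornea stayed under 4.78 throughout.

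Between E13.5 and E14.5 the mandible had 16 keratins called higher (beside 13.3% of all genes) and 1 lower (beside 17.2%), 9 of them higher by at least 2-fold (1.23% of all genes). The 9 were Krt1, Krt77, Krt4, Krt10, Krt13, Krt19, Krt79, Krt15 and Krt17. Krt18, Krt76 and Krt80 lost their calls when a replicate number was left out. Krt18 also lost its call with arrays centred on their medians, with eBayes without a trend or robust, and in a fit on only the arrays compared. The epithelial partners moved in the same step. Of 18 desmosome and hemidesmosome genes 16 rose and 0 fell (median 0.94, beside -0.03 for all genes), among them Dsc1 (5.15), Ppl (1.66) and Perp (1.28). Of 18 cornified envelope genes 12 rose and 0 fell (median 1.26), with Dmkn at 5.24, Krtdap at 3.84, Sprr1b at 2.52 and Sprr1a at 2.19. The surface epithelium list had 11 of 15 higher and 2 lower (median 0.44). Krt1, Krt4, Krt10, Krt13 and Krt77 therefore changed by more than that median, and the part of epithelial content was not tested.

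In the maxilla 13 keratins were called higher from E12.5 to E13.5 (beside 24.5% of all genes) and 2 lower, Krt71 and Krt72 (beside 19.6%), with 5 at least 2-fold higher (2.01% of all genes). These 5 were Krt17, Krt1, Krt8, Krt79 and Krt18. With arrays centred on their medians the split was 13 higher and 5 lower. Krt5, Krt7, Krt23, Krt71, Krt72 and Krt75 lost their calls when a replicate number was left out. Over that step all 15 surface epithelium genes rose (median 0.63), with Epcam at 1.26 and Cldn7 at 1.25, and the part of epithelial content was not tested. From E13.5 to E14.5 the maxilla had 16 called higher (beside 10.3%) and 0 lower (beside 12.9%), 4 of them at least 2-fold (0.407%). Those 4 were Krt17, Krt19, Krt4 and Krt13, and the surface epithelium list had 7 of 15 higher and 1 lower (median 0.18). Krt71, Krt73 and Krt75 lost their calls there when a replicate number was left out. By piece, 19 keratins were higher in the distal maxilla (beside 9.49% of all genes) and 5 in the proximal maxilla (beside 5.34%).

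Whether that last rise differed between pieces was tested after the values were seen. In the maxilla the distal excess grew between E13.5 and E14.5 for 13 keratins (beside 4.08% of all genes) and shrank for 0 (beside 3.01%). At least 2-fold (0.418% of all genes) were Krt1, Krt13, Krt10, Krt25, Krt77 and Krt19, of which Krt13 gave 0.12 and -0.05 in its other probe sets, not called. Krt4, Krt5, Krt8, Krt15, Krt18 and Krt79 lost the call when a replicate number was left out. Krt5 also lost it with repeated quantile normalization, with probe sets averaged and with eBayes without a trend. With robust eBayes Krt5 and Krt15 lost it. In the mandible 2 grew (beside 1.29%), Krt79 by 1.75 (SE 0.218, adjusted p = 1.99e-07) and Krt13 by 1.38 (SE 0.253, adjusted p = 0.000535), and 1 shrank (beside 0.418%), Krt19 at -0.62, lost when a replicate number was left out. Of the surface epithelium genes 11 of 15 grew more distal in the maxilla (median 0.60) and 0 of 15 in the mandible (median -0.15).

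**Figure D4:**
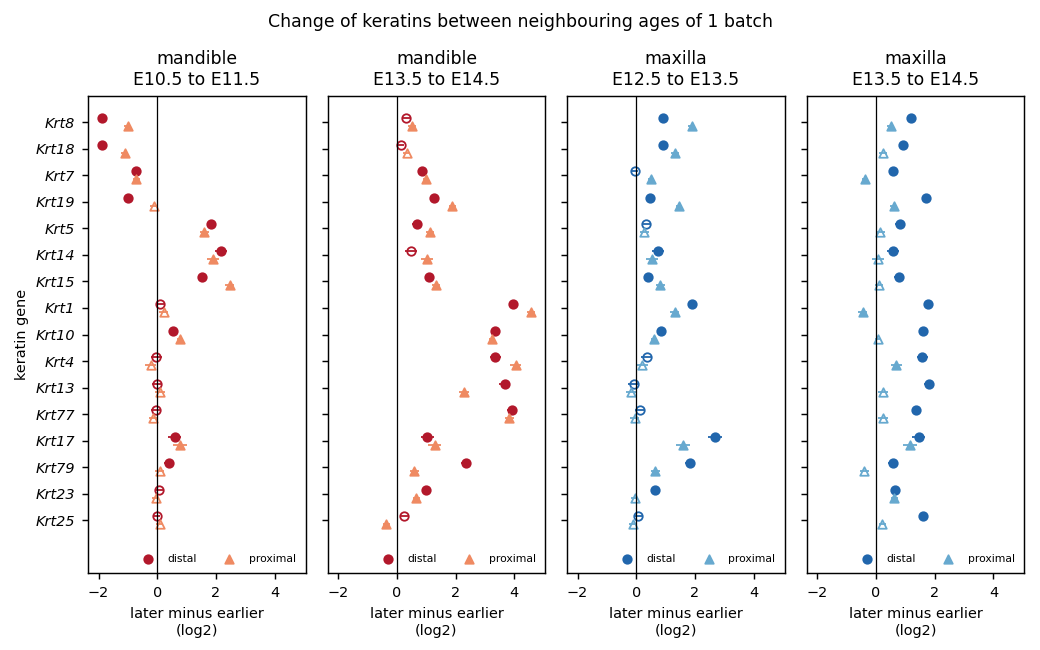
Change in log2 signal of 16 keratins between neighbouring ages that share a batch, for distal (circles) and proximal (triangles) pieces, with bars of 1 SE and filled points where called. In the mandible from E10.5 to E11.5 Krt8 and Krt18 lie left of 0 and Krt5, Krt14 and Krt15 right of it. From E13.5 to E14.5 Krt1 moves by 1.79 in the distal and by -0.45 in the proximal maxilla.

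Among the stress and appendage keratins Krt17 and Krt79 rose strongly and distally. Krt17 is a type I chain of hair follicles, nails and wounded skin, and Krt79 a type II chain of the hair canal and sebaceous glands. Krt75, of the companion layer of hair, Krt80 and Krt16, a stress-induced chain, changed by smaller amounts.

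Krt17 read 5.63, 5.71 and 5.32 at E10.5, then 5.55, 7.13 and 5.74 at E11.5, then 8.52, 8.28 and 8.47 at E12.5, then 9.85, 9.86 and 9.97 at E13.5, then 11.08, 10.95 and 10.77 at E14.5 in the distal mandible. Krt17 in proximal mandible was 5.89, 4.89 and 5.29 at E10.5, then 6.31, 5.63 and 6.49 at E11.5, then 7.07, 7.42 and 7.13 at E12.5, then 7.94, 7.85 and 7.72 at E13.5, then 9.24, 9.13 and 9.01 at E14.5. The pieces overlap at E10.5 and E11.5, where the arrays of a piece spread widely, and are separate from E12.5. Krt17 in distal maxilla was 5.27, 5.07 and 5.31 at E10.5, then 6.11, 5.95 and 6.17 at E11.5, then 6.43, 6.68 and 6.85 at E12.5, then 9.48, 9.17 and 9.32 at E13.5, then 10.84, 10.78 and 10.70 at E14.5. Krt17 in proximal maxilla was 5.20, 4.91 and 5.28 at E10.5, then 5.67, 4.88 and 5.01 at E11.5, then 6.42, 6.81 and 6.92 at E12.5, then 8.61, 8.14 and 8.14 at E13.5, then 9.45, 9.50 and 9.41 at E14.5. In the maxilla the pieces overlap on days E10.5 and E12.5 and are separate at E11.5, E13.5 and E14.5. Krt17 rose by 2.12 (SE 0.162, adjusted p = 1.96e-15) in the maxilla from E12.5 to E13.5 and by 1.30 (SE 0.162, adjusted p = 2.03e-08) from E13.5 to E14.5, and in the mandible by 1.17 (SE 0.162, adjusted p = 9.86e-08) over the latter step. The distal excess averaged 1.05 (SE 0.103, adjusted p = 2.74e-12) in the mandible and 0.65 (SE 0.103, adjusted p = 3.83e-07) in the maxilla. A second probe set of Krt17 did not pass 4.48 in any group mean. With both probe sets averaged, the Krt17 differences shrank, to 0.64 and 0.37 for position in mandible and maxilla, to 1.09 and 0.78 for the steps of the maxilla and to 0.72 for that of the mandible, all still called.

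Krt79 read 5.11, 4.77 and 4.55 at E10.5, then 5.17, 5.32 and 5.14 at E11.5, then 5.42, 5.10 and 5.41 at E12.5, then 5.65, 5.86 and 5.60 at E13.5, then 8.26, 7.96 and 7.90 at E14.5 in the distal mandible. Krt79 in proximal mandible was 4.74, 4.73 and 4.95 at E10.5, then 4.86, 4.90 and 4.91 at E11.5, then 4.80, 4.64 and 4.84 at E12.5, then 4.84, 4.51 and 4.83 at E13.5, then 5.36, 5.44 and 5.14 at E14.5. The distal mandible at E14.5 stands above all other groups. Krt79 in distal maxilla was 4.72, 4.44 and 4.13 at E10.5, then 4.94, 4.46 and 5.07 at E11.5, then 4.62, 4.80 and 4.90 at E12.5, then 6.60, 6.71 and 6.46 at E13.5, then 7.26, 6.90 and 7.34 at E14.5. Krt79 in proximal maxilla was 4.10, 4.66 and 4.65 at E10.5, then 4.93, 5.03 and 4.83 at E11.5, then 5.18, 5.18 and 4.78 at E12.5, then 5.61, 5.74 and 5.71 at E13.5, then 5.49, 5.27 and 5.10 at E14.5. The distal maxilla rises already at E13.5. Of the 20 group means 15 were above 4.78. The others were proximal mandible at E12.5 and E13.5, distal maxilla at E10.5 and E12.5, and proximal maxilla at E10.5. Krt79 differences that use one of these, among them the mandible's step from E13.5 to E14.5, are at best lower bounds. The distal excess at E14.5 was 2.73 (SE 0.154, adjusted p = 1.11e-19) in the mandible and 1.88 (SE 0.154, adjusted p = 1.43e-14) in the maxilla.

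Krt75 had its highest mean, 6.77, in distal mandible at E13.5 and a distal excess of 0.59 (SE 0.0552, adjusted p = 7.3e-13) in the mandible against 0.13 in the maxilla. Within the mandible the excess was called at E12.5 (0.81), E13.5 (1.02) and E14.5 (0.66). Krt80 ran from 5.33 to 6.35 and was distal-high in the mandible by 0.29. Krt16 ran from 4.84 to 5.56 and favoured the distal mandible by 0.33 at E13.5 and by 0.57 at E14.5. Of the relatives outside the naming rule, Krt6a, a partner of Krt16 and Krt17, ran from 6.20 to 9.80 and Krt6b from 4.16 to 8.07, both highest in distal mandible at E14.5.

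Between the first and the last age the distal excess grew for 13 keratins in the mandible (beside 13.4% of all genes) and shrank for Krt8 and Krt18 (beside 12%). In the maxilla it grew for 15 (beside 6.98%) and shrank for Krt222 alone (beside 7.9%). Larger than 2-fold growth was seen in 5 in the mandible (1.31% of all genes), Krt13, Krt79, Krt17, Krt5 and Krt14. In the maxilla 9 grew as much (1.43%), led by Krt1, Krt79, Krt10, Krt13 and Krt25. The growth of Krt13 in the maxilla, 1.80, rests on 1 probe set, since the other 2 gave 0.06 and 0.18, not called, and the average of all 3 gave 0.68. With dim genes left out, 10 of the maxilla's 16 calls were made. Krt17 in the maxilla, 1.23, was 1.22 with adjusted p = 0.0916 without replicate 3. In the mandible the calls of Krt10, Krt16, Krt24, Krt27, Krt73 and Krt75, and in the maxilla those of Krt7, Krt17, Krt19, Krt23, Krt28, Krt35, Krt73 and Krt222, were lost when a replicate number was left out, with Krt73 at 0.46 and Krt75 at 0.36 in the mandible in place of 0.70 and 0.55.

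The hair and nail keratins were mostly flat, with an exception in the distal maxilla at E14.5. Of the 17, 2 had a range of group means of at least 1 (11.8%, beside 35.8% of all genes), Krt25 and Krt73. Both encode chains of the inner root sheath, the sleeve that guides a growing hair, with Krt26, Krt27, Krt28, Krt71 and Krt72. Krt25 had a mean of 5.23 in distal maxilla at E14.5, its 1 group above 4.78, with arrays of 5.12, 5.75 and 4.83. No other array of Krt25 exceeded 3.96, so those 3 stand apart. The distal excess of Krt25 there was 1.54 (SE 0.126, adjusted p = 1.42e-14) and the rise from E13.5 in that piece 1.62 (SE 0.126, adjusted p = 2.35e-14), lower bounds at best. Krt73 reached 5.69 in the same group and exceeded the proximal piece by 0.83 (SE 0.16, adjusted p = 3.82e-05).

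The other inner root sheath chains were weaker or did not follow. At E14.5 in the maxilla the distal excess was 0.44 for Krt28 and 0.29 for Krt71, both called, and 0.31 for Krt27, -0.34 for Krt26 and 0.16 for Krt72, not called. Krt26, Krt27 and Krt28 never had a group mean above 4.78. Of the hair shaft chains Krt35 gave 0.67 there, with a highest mean of 4.46, and Krt31, Krt32, Krt34, Krt36, Krt81, Krt82, Krt83, Krt84 and Krt86 were not called. In the same comparison over all classes 20 keratins were higher distally (beside 21.3% of all genes) and 1, Krt222, lower (beside 12.3%). All 15 surface epithelium genes were higher distally there (median 0.78), and the part of epithelial content was not tested. Krt81 and Krt83 held group means of 6.96 to 7.52 and 6.96 to 7.40 at all ages and places. A steady signal of this kind cannot be told apart from background of the probe set.

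**Figure D5:**
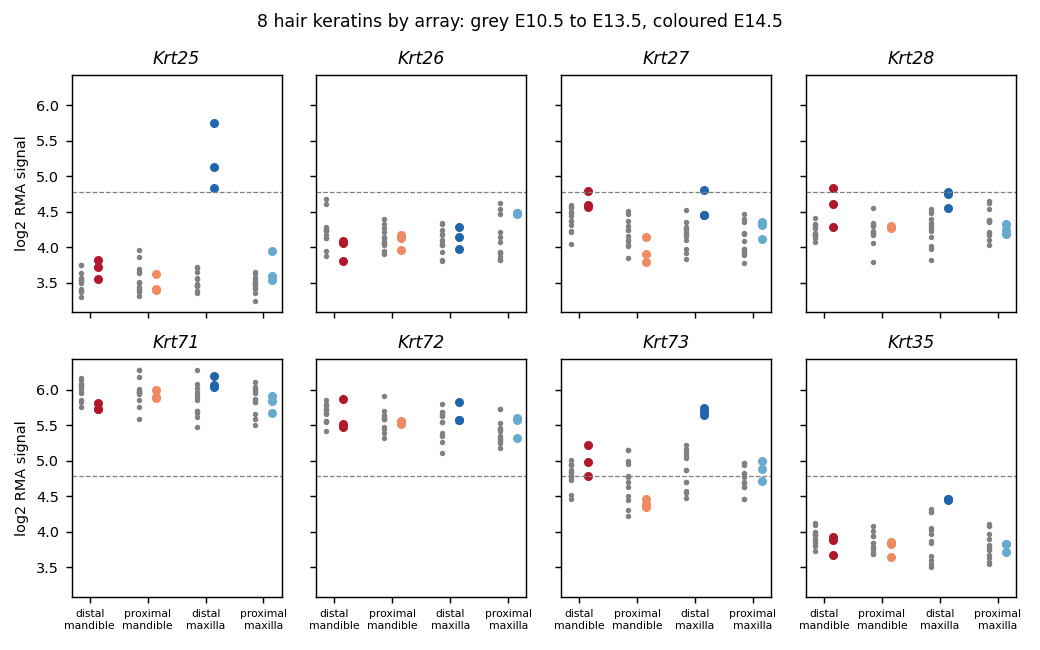
Log2 RMA signal of 8 hair keratins in each array, by piece and jaw, with E14.5 in colour and E10.5 to E13.5 in grey, and 4.78 as the dashed line. The 3 distal maxilla arrays at E14.5 are the highest of Krt25 (4.83 to 5.75) and of Krt73, whereas Krt26, Krt27, Krt28 and Krt72 show no such separation from the other pieces.

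Of the 4 remaining keratins, Krt23 rose late, from a lowest group mean of 4.21 to 5.65 in distal maxilla at E14.5, with a change of 0.84 (SE 0.0861, adjusted p = 4.08e-11) in the mandible and 0.63 (SE 0.0861, adjusted p = 1.41e-07) in the maxilla from E13.5 to E14.5. Krt222, which has an atypical chain, was highest in proximal maxilla at E14.5 (4.96), its 1 group above 4.78, and gave a distal minus proximal value of -0.83 (SE 0.136, adjusted p = 2.16e-06). Its second probe set was highest in the same group, at 3.98. Krt42, whose human counterpart is a pseudogene, read between 8.05 and 8.62 in all 60 arrays, and Krt88 had group means between 6.91 and 7.25. Neither was called in any of the 13 comparisons with the probe set used, which for Krt42 can bind related transcripts by its design. A second probe set of Krt42 ran from 4.88 to 5.49 in its group means. In limma, with adjustment over all probe sets, it was called only in the maxilla from E12.5 to E13.5 (-0.19, adjusted p = 0.0468). For markers of other cells that use simple keratins, 7 Merkel and taste receptor genes had a mean of 5.43 to 5.82, and 10 airway and ciliated genes were highest in distal maxilla at E14.5 (6.14), where Krt19 also peaks, and lowest in distal mandible at E14.5 (4.93). Their part in the levels of Krt8, Krt18 and Krt19 was not tested.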

How the data were processed

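RNA from 60 jaw pieces was measured on Affymetrix Mouse Genome arrays. The deposited values are log2 signals made with RMA per the submitters' processing notes, with the version of RMA not given in the sources used here. RMA fits a background, gives the arrays it treats together one distribution and sums the probes of a set. The 60 deposited arrays did not share one distribution, since their medians ran from 6.05 to 6.31. Of 45101 probe sets, 34945 have a single gene symbol, and the one with the highest mean over 60 arrays stood for its gene, giving 18193 genes. limma 3.58.1 (R 4.3.3) fitted 20 group means with lmFit and eBayes with a trend (40 residual degrees of freedom), and p-values were adjusted with Benjamini-Hochberg over all genes. The fit was tested on simulated data. Tables and plots were made with Python 3.11.15, pandas 2.3.3, numpy 2.4.6 and matplotlib 3.10.9. Members, classes, gene lists and motifs were chosen with earlier results of these data known. Every array's value is given for members with a highest group mean of at least 8, save the flat Krt42. Genes that are no members were named as up to 4 called list members with the smallest p per comparison, or by likeness to Krt14 and Krt8. The 13 members without a promoter sequence are described by signal alone. The arrays' number limits the precision.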

Additional observations from a re-analysis of the deposited data

Results flagged for a closer look

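A first set of results was flagged because limma's test of the difference itself called the distal minus proximal difference unequal between the jaws. Of 44 keratins, 5 were called larger in the mandible (beside 16.1% of all genes) and 9 larger in the maxilla (beside 23.8%). Neither share is above that of all genes. Krt7, Krt17, Krt23, Krt77 and Krt222 lost the call when a replicate number was left out. The mandible's difference minus that of the maxilla was 0.96 for Krt13, 0.46 for Krt75, 0.44 for Krt79, 0.40 for Krt17 and 0.21 for Krt222. It was -0.52 for Krt15, -0.51 for Krt8, -0.48 for Krt19, -0.47 for Krt10, -0.35 for Krt18, -0.33 for Krt25, -0.27 for Krt77, -0.25 for Krt23 and -0.19 for Krt7. For the 15 surface epithelium genes the median of the same value was -0.22.

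A second set stood out because the distal minus proximal difference changed at least 2-fold between ages by the same kind of test. From E10.5 to E14.5 in the mandible the change was 3.58 for Krt13, 2.72 for Krt79, 1.62 for Krt17, 1.32 for Krt5 and 1.06 for Krt14. Krt8 gave -1.41 and Krt18 -1.16 over the same ages. In the maxilla it was 3.17 for Krt1, 1.92 for Krt79, 1.81 for Krt10, 1.80 for Krt13, 1.54 for Krt25, 1.46 for Krt77, 1.23 for Krt17, 1.18 for Krt5 and 1.01 for Krt4. With all probe sets of the gene averaged, the maxilla's change was 0.68 for Krt13, whose other 2 probe sets gave 0.06 and 0.18, not called, and 0.80 for Krt17. Each of these differences compares pieces inside one batch before the ages are set against each other.

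Between E13.5 and E14.5 the change was 1.75 for Krt79 and 1.38 for Krt13 in the mandible. In the maxilla it was 2.24 for Krt1, 1.57 for Krt13, 1.51 for Krt10, 1.41 for Krt25, 1.14 for Krt77 and 1.09 for Krt19. For Krt13 in the maxilla the other 2 probe sets gave 0.12 and -0.05, not called, and the average of all 3 gave 0.55. This last step was added after the values were seen.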

How the results depend on the processing

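The 182 calls of a keratin in a comparison were recomputed under 13 alternatives, 12 of them on the interaction since the fit on only the arrays compared was not run for it. Of the 182, 131 could be recomputed with dim genes left out, and the alternatives together gave 2301 values. None reversed, 2178 stayed on the same side of the threshold, 123 fell short of it and 125 of the 182 calls were never lost in the alternatives run for them. The largest difference that lost a call was 1.23, Krt17 in the maxilla from E10.5 to E14.5. Leaving out replicate 1, 2 or 3 lost 35, 29 and 28 calls. A fit on only the arrays compared lost 7, and leaving out the pair of mandible E11.5 arrays lost 5. Array weights, median centring and robust eBayes lost 4 each. Repeated quantile normalization lost 3, eBayes without a trend 2 and averaged probe sets 1. With dim genes left out, the position calls of the mandible went from 21 to 12 and the maxilla's changes from E10.5 to E14.5 from 16 to 10, because dim members were then not tested. Leaving out each replicate number in turn gave 10 to 14 for the latter, the lowest without replicate 3. With the replicate number as a block, 1 call was lost, that of Krt78 in the mandible from E10.5 to E11.5 (-0.21, adjusted p = 0.0505 in limma, beside 0.0472). Of 30 same-numbered pairs 10 had a correlation over 0.1 (range -0.36 to 0.44). In the maxilla at E10.5 all 3 did (0.34, 0.17 and 0.26), each best with its own number. In no other jaw and age did all 3, but 2 did in the maxilla at E12.5. At E13.5 in the maxilla 2 did as well, with 0.44 for replicate 1. Whether same-numbered pieces come from the same embryos is not stated, and the main fit did not pair them. Low signals limit Krt13, Krt23, Krt24, Krt25, Krt73, Krt79 and Krt222, whose lowest groups are at or under 4.78, and Krt2, Krt27, Krt28, Krt34 and Krt35, with no group above it, and no detection calls were used.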

Other observations

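Genes that regulate surface epithelium followed the position of the keratins. Of 19 measured, 17 were higher distally and 1 lower in the mandible (beside 18.3% and 17.9% of all genes; median 0.71, beside 0.01), and 19 were higher in the maxilla (beside 31.6%; median 0.80, beside 0.04). Trp63, the p53-family factor of basal epithelium, was distal-high by 0.94 in the mandible and by 1.17 in the maxilla. In the mandible 4 of 19 rose and 3 fell from E10.5 to E11.5 (beside 27.7% and 16.5% of all genes; median 0.10), with Klf4 at 2.34, and 16 rose and 0 fell from E13.5 to E14.5 (beside 13.3% and 17.2%; median 0.54), with Grhl1 at 2.02. In the maxilla 13 rose and 1 fell from E12.5 to E13.5 (beside 24.5% and 19.6%), and 6 rose and 1 fell from E13.5 to E14.5 (beside 10.3% and 12.9%), with Ehf at 1.44.

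Markers of other tissues in the pieces varied widely between groups. The mean log2 signal of 10 neuron genes ran from 6.02 in proximal mandible at E10.5 to 12.67 in proximal maxilla at E12.5, the group where Krt8 and Krt18 are lowest. That of 8 skeletal muscle genes ran from 5.72 in distal maxilla at E10.5 to 12.05 in proximal mandible at E14.5. That of 5 oral and dental epithelium genes ran from 7.54 in proximal mandible at E12.5 to 9.53 in distal maxilla at E10.5. The part of these tissues in the keratin values was not tested.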
